A study of Mus musculus with 9 samples.

Results

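Semaphorins, plexins, Eph receptors, ephrins, netrins, Unc5 receptors, Slits and Robos are the main families of cell guidance signals and receptors. The set described here holds every protein-coding gene of the deposited mouse table whose symbol belongs to these families, 65 of 54532 genes in all. They comprise 7 class 3 semaphorins, 13 other semaphorins, 9 plexins, 9 EphA and 5 EphB receptors, 5 ephrin-A and 3 ephrin-B genes, 3 netrins, 4 Unc5 receptors, 3 Slits and 4 Robos.

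The samples were flat mounts of choroid and retina from C57BL/6 mice, in 3 groups of 3 libraries. The BetP-Gel@Ran mice were sampled 3 months after an injection into the vitreous, and their treatment field names the gel but not ranibizumab, the antibody fragment against vascular endothelial growth factor A that the series pairs with it. The CNV mice carry sample titles that refer to wet age-related macular degeneration, and the third group was untreated. The labels give no sampling time for CNV and untreated mice and leave unsaid whether CNV was also present in the BetP-Gel@Ran mice, so time and treatment cannot be told apart. How CNV was produced is not given either. The source of each library within a group is not stated. A p-value here sets a difference of group means against the spread of these libraries, which may be only technical.

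Semaphorins signal through plexins, and the secreted class 3 semaphorins usually need a neuropilin as a co-receptor. Ephrins bind Eph receptor tyrosine kinases on neighbouring cells, and both partners can signal. Netrins act through Dcc, neogenin and Unc5 receptors, and Slits act through Robos. In the retina these systems are known for steering ganglion cell axons and vessels, and several also act in immune cells and surface epithelia.

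The libraries held 16990118 to 18753737 reads on genes. Values are FPKM (fragments scaled to gene length and a library size), so levels can be compared between genes. The library size that the values imply was not the number of reads on genes. It was 19813498 beside 18753737 reads in CNV replicate 1 and 16141701 beside 17055610 reads in untreated replicate 3. It was above the reads in every CNV library, in BetP-Gel@Ran replicates 1 and 2 and in untreated replicate 2. It was below them in untreated replicates 1 and 3 and, slightly, in BetP-Gel@Ran replicate 3 (16986230 beside 16990118). Each log2 fold change of the test was taken from log2(FPKM + 1), is given with its SE, and is smaller than the true change for genes at low levels. A member was called when the limma adjusted p, over all tested genes, was under 0.05. Beside retinal markers, the libraries held markers of cornea, surface epithelium and lens. Rod markers summed to 2320 to 3059 FPKM in BetP-Gel@Ran, 1746 to 2174 in CNV and 4446 to 5437 in untreated libraries. Corneal and surface epithelium markers summed to 14472 to 18029, 10732 to 12235 and 20362 to 23438 FPKM in the same groups, and lens markers to 1576 to 5793, 110 to 249 and 626 to 16594, with the highest value in untreated replicate 3. Skeletal muscle markers summed to 1289 to 1517 FPKM in BetP-Gel@Ran, 888 to 1527 in CNV and 5205 to 5801 in untreated libraries, and all 12 tested ones were lower than in untreated libraries in both other groups. Fibroblast and stroma markers summed to 647 to 814, 469 to 618 and 976 to 1144 FPKM in the same groups. Tnnc2, a muscle marker, was the only marker of these lists at 0 in every library. The part of these tissues in the levels of guidance genes was not tested. Across genes, CNV replicate 3 stood nearer to the BetP-Gel@Ran libraries (r of 0.972 to 0.979) than CNV replicates 1 and 2 did (r of 0.944 to 0.964), and its r with those CNV libraries was 0.981 to 0.984. In bulk tissue, fewer cells of a type and less RNA per cell cannot be told apart.

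Guidance genes moved in both directions, and among the families the plexins held the most members that rose against untreated libraries. Of the 65 members, 37 passed the filter of at least 1 FPKM in at least 3 libraries. In CNV against untreated libraries, 8 tested members were higher and 7 lower, or 40.5% of the tested members, beside 44.6% of all tested genes (22.5% higher and 22.1% lower). In BetP-Gel@Ran against CNV libraries, 4 were higher and 3 lower, or 18.9%, beside 14.1% of all tested genes (5.81% higher and 8.27% lower). In BetP-Gel@Ran against untreated libraries, 13 were higher and 5 lower, or 48.6%, beside 34.2% of all tested genes (16.1% higher and 18.1% lower). The groups did not overlap for 10 higher and 7 lower members in the first comparison, 10 and 5 in the second and 16 and 5 in the third, beside 54.4%, 36.9% and 50.7% of all tested genes. The median log2 fold changes of the tested members were 0.05, 0.10 and 0.17 in these 3 comparisons, and those of all tested genes were 0.01, 0.00048 and -0.01. No tested member reached a difference of 1 in log2(FPKM + 1) in any comparison. With FPKM divided by each library's sum, 63.2% of all genes called in BetP-Gel@Ran against untreated libraries were higher, compared with 47.1% as deposited, and the members became 14 higher and 1 lower.

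**Figure D1:**
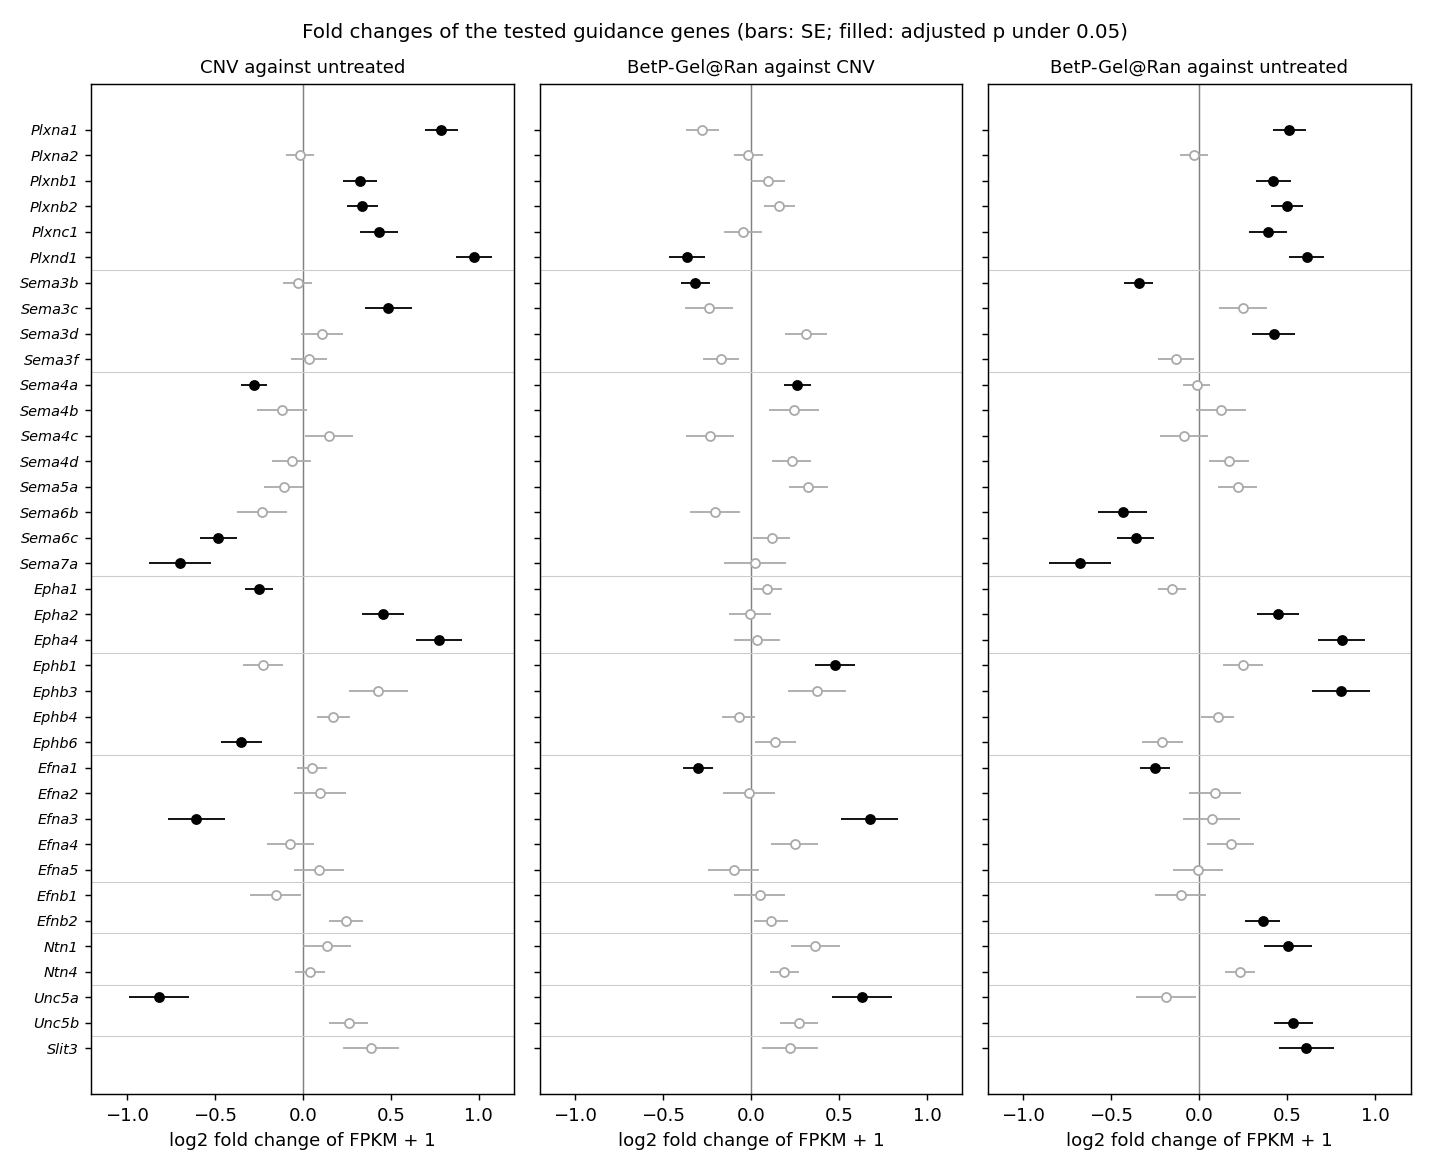
Log2 fold changes of FPKM + 1 (x axis, bars are SE) for the 37 tested guidance genes (rows, grouped by family) in 3 comparisons. Filled points passed an adjusted p of 0.05. 5 of the 6 tested plexins lie right of zero in CNV against untreated and in BetP-Gel@Ran against untreated libraries.

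Plexins, the receptors of semaphorins, were higher than in untreated libraries in both other groups. Of 6 tested plexins, 5 rose in CNV and the same 5 rose in BetP-Gel@Ran libraries, both set against the same untreated libraries. That is 83.3% of the tested plexins each time, beside 44.6% and 34.2% of all tested genes. Summed over all 9 plexin genes, the level was 67.6 ± 1.81 FPKM in BetP-Gel@Ran, 63.2 ± 3.70 in CNV and 47.1 ± 3.78 in untreated libraries (SD, n = 3 each), most of it from Plxnb2. Plxnc1 and Plxnd1 stayed under 1 FPKM in all untreated libraries and passed the filter through the other groups. The count of tested plexins and the values of both genes are therefore a description.

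Plxnd1, the receptor of semaphorin 3E that is best known from vessels, changed most (ENSMUSG00000030123, mm10 chromosome 6, 115954811 to 115995005, minus strand). Its level was 2.09, 1.64 and 1.79 FPKM in BetP-Gel@Ran, 2.86, 2.88 and 2.24 in CNV and 0.791, 0.933 and 0.849 in untreated libraries. The 3 groups did not overlap: CNV libraries were highest, BetP-Gel@Ran libraries lay between, and untreated libraries were lowest. The means differed 3.10-fold in CNV against untreated libraries (log2 0.97 ± 0.10, limma adjusted p = 9.79e-05) and 2.14-fold in BetP-Gel@Ran against untreated libraries (log2 0.61 ± 0.10, limma adjusted p = 0.00227). In BetP-Gel@Ran against CNV libraries its log2 level fell by 0.36 (limma adjusted p = 0.0436). Of 9 fits that each left out 1 library, this last call was lost without BetP-Gel@Ran replicates 1, 2 or 3, CNV replicates 1 or 2, or untreated replicates 1, 2 or 3 (adjusted p of 0.0501 to 0.15), and it was also lost with no filter, with FPKM divided by its sum, with a pseudocount of 0.1 and with 2 groups only. Both calls against untreated held in all 9. Since the gene passed the filter only through the groups where it was higher, these calls are a description. The gene was covered by 98 to 414 reads per library.

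Plxna1, a receptor that works with neuropilins to receive class 3 semaphorins, followed the same order (chromosome 6, 89316314 to 89362620). It had 2.92, 2.78 and 3.02 FPKM in BetP-Gel@Ran, 4.21, 3.47 and 3.54 in CNV and 1.56, 2.03 and 1.66 in untreated libraries, again with no overlap between groups. The rise was 0.79 ± 0.09 on the log2 scale in CNV and 0.51 ± 0.09 in BetP-Gel@Ran against untreated libraries (limma adjusted p = 1.99e-04 and 0.00344). The lower level in BetP-Gel@Ran than in CNV libraries was not called (log2 -0.28, limma adjusted p = 0.0764).

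Plxnc1, the receptor of semaphorin 7A that is known from immune cells, was present at 1.20, 1.09 and 1.14 FPKM in BetP-Gel@Ran, 1.21, 1.49 and 0.963 in CNV and 0.579, 0.715 and 0.616 in untreated libraries. Every library of both other groups lay above every untreated one, by 0.39 ± 0.11 and 0.44 ± 0.11 on the log2 scale in BetP-Gel@Ran and CNV libraries (limma adjusted p = 0.0219 and 0.00978). The first of these calls was lost without BetP-Gel@Ran replicates 1 or 3, or untreated replicates 1 or 3 (adjusted p of 0.0523 to 0.0692) and with quantile normalization. As Plxnc1 also passed the filter only through the higher groups, its calls are a description.

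Plxnb2, the most abundant member of the whole set, had 51.9, 49.5 and 53.4 FPKM in BetP-Gel@Ran, 47.9, 42.4 and 48.1 in CNV and 40.1, 35.9 and 33.0 in untreated libraries. It rose 1.42-fold and 1.27-fold against untreated libraries (limma adjusted p = 0.00306 and 0.0124), without overlap. Plxnb1, the receptor of semaphorin 4D, had 8.61, 7.92 and 6.74 FPKM in BetP-Gel@Ran, 7.86, 6.76 and 6.91 in CNV and 5.68, 5.82 and 5.06 in untreated libraries. It rose 1.40-fold and 1.30-fold, also without overlap (limma adjusted p = 0.00999 and 0.0227), and the rise in CNV was lost without CNV replicate 1, or untreated replicate 3 (adjusted p of 0.0714 to 0.0821). An antisense gene, Gm7628, overlaps Plxnb1 at 0.523 FPKM, and no strand setting of the counting is stated. Plxna2 was the exception among tested plexins, with 1.42 ± 0.145, 1.45 ± 0.0410 and 1.47 ± 0.0578 FPKM in BetP-Gel@Ran, CNV and untreated libraries (SD, n = 3 each; limma adjusted p of at least 0.804 in each comparison).

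The neuropilins are co-receptors that stand outside the set. Both stayed under 1 FPKM in all untreated libraries and passed the filter through the other groups, so their values are a description. Nrp1 had 1.53, 1.53 and 1.68 FPKM in BetP-Gel@Ran, 1.86, 1.68 and 1.84 in CNV and 0.783, 0.955 and 0.779 in untreated libraries, and it rose against untreated in both (limma adjusted p = 0.00253 and 4.58e-04). Nrp2 had 1.41, 1.62 and 1.81 FPKM in BetP-Gel@Ran, 2.26, 3.01 and 1.71 in CNV and 0.751, 0.870 and 0.978 in untreated libraries, and it rose too (limma adjusted p = 0.0248 and 0.00138). The BetP-Gel@Ran call of Nrp2 was lost without BetP-Gel@Ran replicates 2 or 3, or untreated replicates 1 or 2 (adjusted p of 0.0607 to 0.0856).

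**Figure D2:**
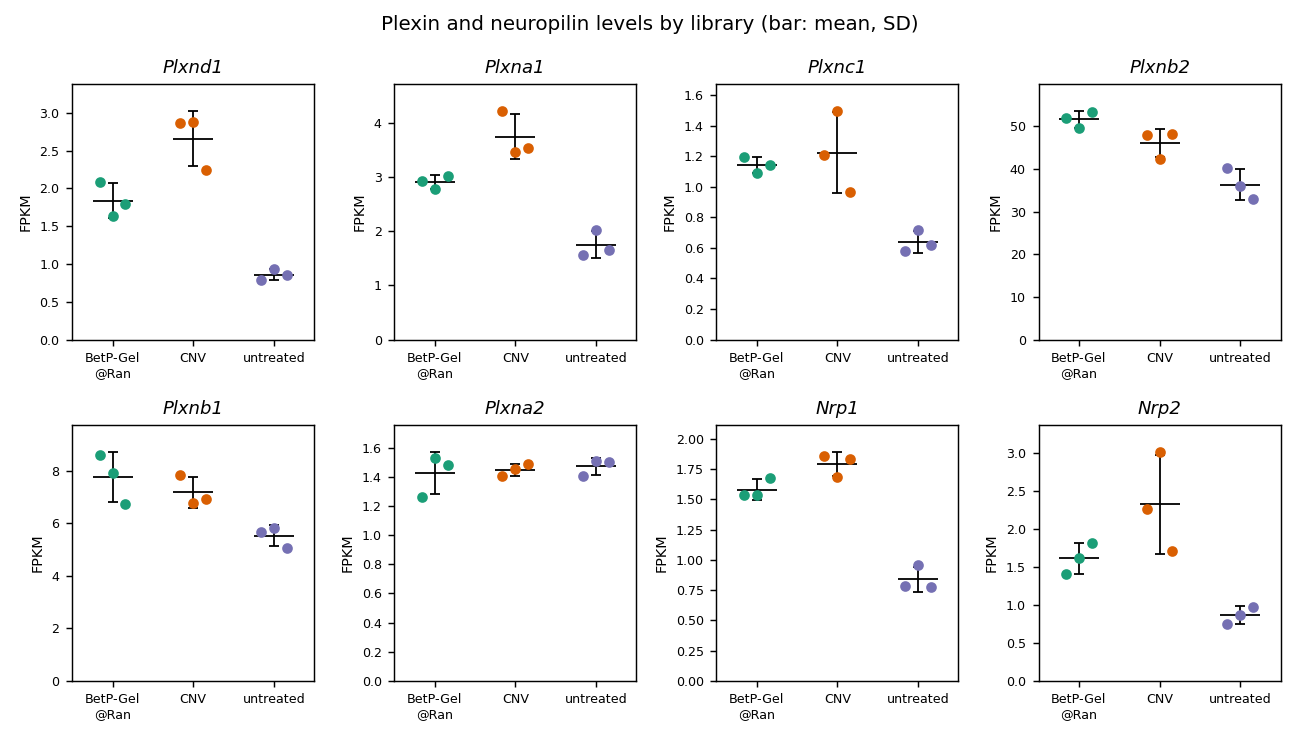
FPKM (y axis, from 0) of 6 plexin and 2 neuropilin genes in each library of the 3 groups (x axis). Points are libraries and bars are the mean and SD. Apart from Plxna2, every BetP-Gel@Ran and CNV library lies above every untreated library in each panel.

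Markers of myeloid and endothelial cells are given beside the plexins. Of 14 myeloid markers, 12 were higher in BetP-Gel@Ran and 14 in CNV than in untreated libraries. They summed to 923 to 1271 FPKM in BetP-Gel@Ran, 1975 to 3193 in CNV and 490 to 518 in untreated libraries. Against CNV libraries, 11 myeloid markers were lower in BetP-Gel@Ran libraries and 0 higher. The plexin sum was 67.6 ± 1.81 FPKM in BetP-Gel@Ran and 63.2 ± 3.70 in CNV libraries (SD), most of it from Plxnb2. Plxnb2 was higher in BetP-Gel@Ran than in CNV libraries without overlap (means of 51.6 and 46.1 FPKM). Plxnd1 (1.84 and 2.66) and Plxna1 (2.91 and 3.74) were lower without overlap, and the other tested plexins overlapped. Of these differences, only that of Plxnd1 was called. Of 9 tested endothelial markers, 2 were higher and 1 lower in BetP-Gel@Ran than in untreated libraries, and 0 were higher and 1 lower in CNV than in untreated libraries. Their sums were 20.9 to 25.8, 18.0 to 20.9 and 19.9 to 21.8 FPKM in BetP-Gel@Ran, CNV and untreated libraries. No endothelial marker was listed at 0. The part of myeloid cells in the plexin levels was not tested.

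The stretches just upstream of the plexin genes that rose together are shown because these genes rose in both comparisons with untreated libraries. They are the 250 bases before the annotated start in RefSeq on GRCm38.p6, which is mm10, for 4 of the 5 genes. The RefSeq start of Plxnb1 lies 47 bases inside the deposited gene, so the end of that window overlaps the gene as counted. Plxnb2 has another annotated start, whose window at chr15:89173952-89174201 is not shown and held 3 GC boxes at 63.6% G and C. Capitals mark the GC box GGGCGG on either strand, a motif bound by Sp family factors.

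Plxnd1, chr6:115995006-115995255, minus strand: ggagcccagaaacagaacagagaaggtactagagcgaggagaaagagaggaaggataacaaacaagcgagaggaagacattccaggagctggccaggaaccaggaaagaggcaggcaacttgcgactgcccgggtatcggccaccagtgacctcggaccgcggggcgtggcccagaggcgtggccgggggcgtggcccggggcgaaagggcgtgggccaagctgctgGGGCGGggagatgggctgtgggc
Plxnb1, chr9:109095186-109095435, plus strand: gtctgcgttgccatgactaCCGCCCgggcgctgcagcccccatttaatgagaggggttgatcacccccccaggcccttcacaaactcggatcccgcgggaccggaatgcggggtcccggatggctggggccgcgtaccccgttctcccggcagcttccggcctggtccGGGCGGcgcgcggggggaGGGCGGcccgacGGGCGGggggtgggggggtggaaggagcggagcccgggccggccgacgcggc
Plxnb2, chr15:89180789-89181038, minus strand: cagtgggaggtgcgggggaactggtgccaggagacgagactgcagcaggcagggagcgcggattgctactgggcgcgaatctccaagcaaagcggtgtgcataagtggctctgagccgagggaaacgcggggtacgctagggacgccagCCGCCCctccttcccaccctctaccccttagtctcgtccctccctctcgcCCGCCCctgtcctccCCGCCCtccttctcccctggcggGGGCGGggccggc
Plxnc1, chr10:94944846-94945095, minus strand: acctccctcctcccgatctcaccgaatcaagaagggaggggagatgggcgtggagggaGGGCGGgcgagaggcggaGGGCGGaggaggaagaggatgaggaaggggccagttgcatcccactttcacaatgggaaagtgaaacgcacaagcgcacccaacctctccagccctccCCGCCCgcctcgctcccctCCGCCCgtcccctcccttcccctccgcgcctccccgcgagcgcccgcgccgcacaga

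The 4 windows shown were rich in G and C, at 64.8% to 75.2%, compared with a median of 52.4% over 32851 RefSeq windows of the same length. The Plxnd1 window held 1 GC box and the other 3 held 4 each. At least 1 GC box stood in 82.2% of 45 windows of tested members, which came from 33 genes, and in 32.7% of all windows. The AP-1 motif TGANTCA, read on both strands, stood in none of these 4 windows, in 6.67% of the windows of tested members and in 6.75% of all windows. A match describes the letters only and says nothing of binding. The RefSeq windows were not limited to tested genes, so these shares and the median do not set guidance genes apart from other expressed genes.

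Semaphorins, the ligands, moved in both directions. Of 12 tested semaphorins, 1 rose and 3 fell in CNV, and 1 rose and 4 fell in BetP-Gel@Ran, each against untreated libraries. These are 33.3% and 41.7% of the tested semaphorins, beside 44.6% and 34.2% of all tested genes. The highest levels belonged to Sema4d, a ligand of plexin-B1, at 15.0 ± 1.43 FPKM in BetP-Gel@Ran, 12.7 ± 0.985 in CNV and 13.3 ± 1.91 in untreated libraries, and to Sema3f, a secreted neuropilin-2 ligand, at 10.9 ± 0.681, 12.5 ± 2.01 and 12.1 ± 0.388 (SD, n = 3 each). Neither was called in any comparison.

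Sema7a, a membrane-anchored semaphorin and the ligand of plexin-C1, was lower in both groups than in untreated libraries. It had 2.79, 2.15 and 1.71 FPKM in BetP-Gel@Ran, 2.86, 2.07 and 1.61 in CNV and 4.57, 4.56 and 3.27 in untreated libraries. All 3 untreated libraries lay above the others, and the BetP-Gel@Ran and CNV libraries overlapped. It fell by 0.68 ± 0.18 and 0.70 ± 0.18 on the log2 scale (limma adjusted p = 0.0162 and 0.0102), and the first call was lost without BetP-Gel@Ran replicate 3, or untreated replicates 1 or 2 (adjusted p of 0.0561 to 0.0625).

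Sema6c, a transmembrane semaphorin, had 1.40, 1.85 and 1.54 FPKM in BetP-Gel@Ran, 1.38, 1.14 and 1.67 in CNV and 2.19, 2.37 and 2.42 in untreated libraries. It fell 1.46-fold and 1.67-fold without overlap (limma adjusted p = 0.0253 and 0.00511), and the BetP-Gel@Ran call was lost without BetP-Gel@Ran replicates 1 or 3, or untreated replicates 2 or 3 (adjusted p of 0.0669 to 0.08), with no filter and with FPKM divided by its sum. Its relative Sema6b was called only in BetP-Gel@Ran against untreated libraries, with 1.16, 0.824 and 1.04 FPKM in BetP-Gel@Ran and 1.63, 2.31 and 1.28 in untreated libraries (limma adjusted p = 0.0390, lost with no filter, with FPKM divided by its sum and with 2 groups only). It had 1.17, 1.49 and 1.27 FPKM in CNV libraries. That call was lost without BetP-Gel@Ran replicates 1, 2 or 3, or untreated replicates 1 or 2 (adjusted p of 0.0505 to 0.121).

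Sema4a, a semaphorin of the pigment epithelium whose human gene is linked to retinal degeneration, was lowest in CNV libraries. It had 12.4, 12.3 and 12.0 FPKM in BetP-Gel@Ran, 9.69, 10.2 and 10.1 in CNV and 13.8, 11.7 and 11.6 in untreated libraries, so the CNV libraries lay below all others. It fell 1.24-fold in CNV against untreated libraries (limma adjusted p = 0.0156) and was 1.22-fold higher in BetP-Gel@Ran than in CNV libraries (limma adjusted p = 0.0492). The first call was lost without CNV replicate 1, or untreated replicate 1 (adjusted p of 0.0503 to 0.0524). The second was lost without BetP-Gel@Ran replicates 1, 2 or 3, CNV replicates 1, 2 or 3, or untreated replicate 2 (adjusted p of 0.0575 to 0.149). Both were lost with FPKM divided by each library's sum, and the second also with no filter and with no trend or robust option. Markers of the pigment epithelium summed to 959 to 1054 FPKM in BetP-Gel@Ran, 925 to 1348 in CNV and 954 to 1400 in untreated libraries, and their part was not tested.

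Of the secreted class 3 semaphorins, Sema3b was lowest in the BetP-Gel@Ran group. It had 6.88, 7.50 and 7.62 FPKM in BetP-Gel@Ran, 10.5, 9.23 and 8.44 in CNV and 9.26, 9.64 and 9.83 in untreated libraries. The BetP-Gel@Ran libraries lay below all others, by 0.34 ± 0.08 on the log2 scale against untreated libraries (limma adjusted p = 0.0125, called in all 9 left-out fits, though not with FPKM divided by each library's sum) and by 0.32 ± 0.08 against CNV libraries (limma adjusted p = 0.0386). The second call was lost without BetP-Gel@Ran replicates 1, 2 or 3, CNV replicates 1 or 2, or untreated replicates 1 or 2 (adjusted p of 0.0542 to 0.124), and with no filter, FPKM divided by its sum or 2 groups only. Sema3f, on the same strand of chromosome 9 with a gap of 72270 bases and 3 coding genes between, was not called. Sema3c had 9.42, 8.86 and 11.6 FPKM in BetP-Gel@Ran, 11.4, 12.8 and 11.4 in CNV and 6.91, 7.74 and 10.1 in untreated libraries. It rose 1.44-fold in CNV against untreated libraries (limma adjusted p = 0.0162), a call lost without CNV replicate 2, or untreated replicates 1 or 2 (adjusted p of 0.0536 to 0.0608). Sema3d, which passed the filter through the BetP-Gel@Ran libraries and 1 untreated library, had 1.18, 1.41 and 1.51 FPKM in BetP-Gel@Ran, 0.951, 0.789 and 0.967 in CNV and 0.740, 1.02 and 0.548 in untreated libraries. It rose 1.77-fold in BetP-Gel@Ran against untreated libraries (limma adjusted p = 0.0237), a call lost without BetP-Gel@Ran replicates 2 or 3, or untreated replicates 1 or 3 (adjusted p of 0.0646 to 0.0807).

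**Figure D3:**
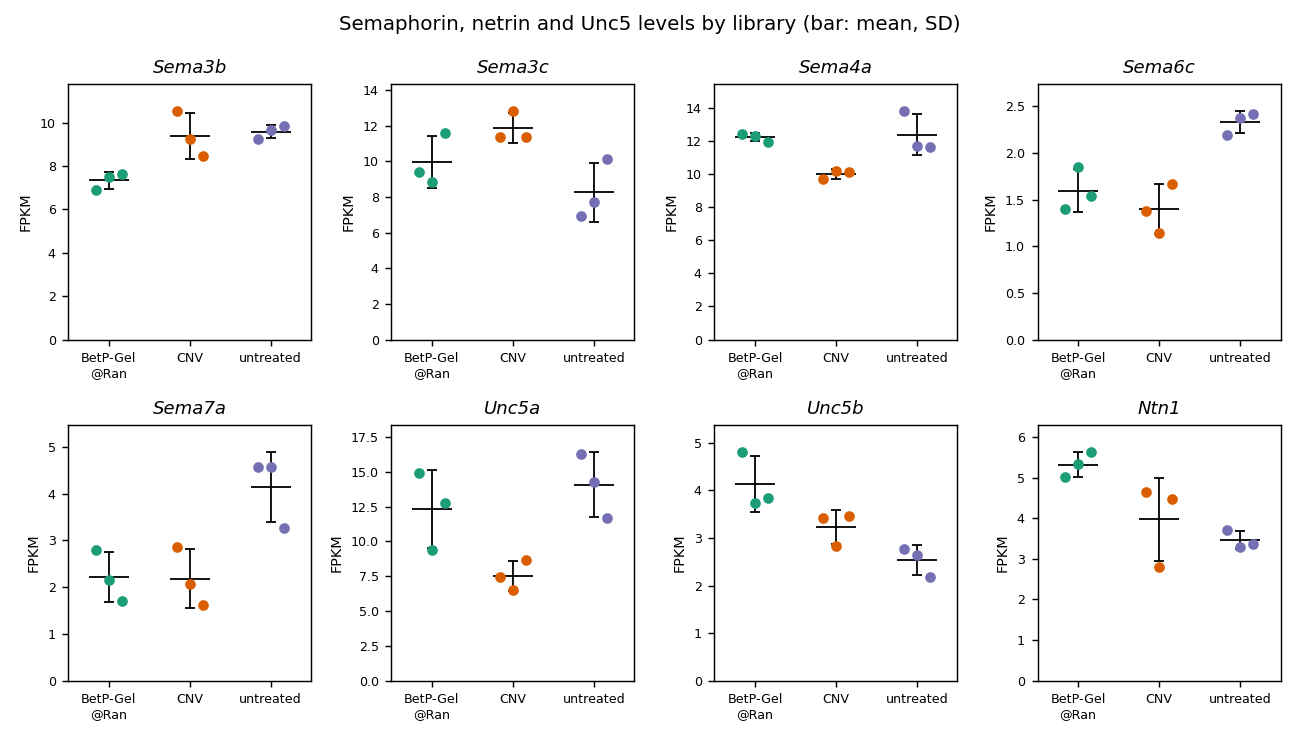
FPKM (y axis, from 0) of 5 semaphorins, the netrin receptors Unc5a and Unc5b and the netrin Ntn1 in each library of the 3 groups (x axis). Points are libraries and bars are the mean and SD. Sema6c and Sema7a are highest in untreated libraries, Sema4a and Unc5a are lowest in CNV libraries and Sema3b is lowest in BetP-Gel@Ran libraries.

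Among Eph receptors, 3 members rose against untreated libraries in at least one of the other groups. Of the 7 tested Eph receptors, 42.9% were called in BetP-Gel@Ran and 57.1% in CNV against untreated libraries, beside 34.2% and 44.6% of all tested genes. These were 3 higher and 0 lower in BetP-Gel@Ran, and 2 higher and 2 lower in CNV libraries. Of all tested genes, 16.1% were higher and 18.1% lower in BetP-Gel@Ran, and 22.5% higher and 22.1% lower in CNV libraries. Epha4, which binds ephrins of both classes, rose in both groups. It had 5.68, 5.91 and 6.46 FPKM in BetP-Gel@Ran, 5.74, 4.78 and 7.25 in CNV and 3.42, 3.10 and 2.54 in untreated libraries. All libraries of both groups lay above the untreated ones, 1.99-fold and 1.96-fold by the means (log2 0.81 ± 0.13 and 0.77 ± 0.13, limma adjusted p = 0.00216 and 0.00142), and both calls held in all 9 left-out fits.

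Epha2, an ephrin-A1 receptor that is abundant in epithelia, was the highest Eph gene, at 35.0, 29.7 and 31.0 FPKM in BetP-Gel@Ran, 35.4, 28.5 and 32.4 in CNV and 25.9, 24.1 and 19.5 in untreated libraries. It rose 1.38-fold in each comparison with untreated libraries, without overlap (limma adjusted p = 0.0181 and 0.0126), and the BetP-Gel@Ran call was lost without BetP-Gel@Ran replicate 1, or untreated replicate 3 (adjusted p of 0.0511 to 0.0592). Corneal and surface epithelium markers ran the other way, with 6 of 10 lower and 1 higher in CNV than in untreated libraries, and their part in the level of Epha2 was not tested. Ephb3, a receptor of ephrin-B ligands, had 24.5, 20.0 and 20.7 FPKM in BetP-Gel@Ran, 18.1, 12.2 and 20.1 in CNV and 13.7, 11.4 and 10.9 in untreated libraries. It rose 1.81-fold in BetP-Gel@Ran (limma adjusted p = 0.00601, called in all 9 fits), while CNV libraries overlapped the untreated ones and were not called (limma adjusted p = 0.0610). The rise in CNV was called in 4 of 18 other fits, among them quantile normalization and limma voom (lowest adjusted p of 0.00440).

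Ephb1, which in the developing mouse sends ganglion cell axons to the same side of the brain, had 1.67, 1.51 and 1.75 FPKM in BetP-Gel@Ran, 0.778, 0.773 and 1.17 in CNV and 1.38, 1.30 and 1.00 in untreated libraries. The BetP-Gel@Ran libraries were above all others, and the difference from CNV was called (1.81-fold, limma adjusted p = 0.0279), though lost without BetP-Gel@Ran replicates 1, 2 or 3, or CNV replicates 1 or 2 (adjusted p of 0.0643 to 0.104) and with no filter. It passed the filter through all 3 BetP-Gel@Ran, 1 CNV and 2 untreated libraries. Epha1 and Ephb6 were lower in CNV than in untreated libraries, 1.20-fold and 1.36-fold. They had 12.7 ± 0.652 and 3.40 ± 0.170 FPKM in CNV against 15.3 ± 0.858 and 4.62 ± 0.624 in untreated libraries (SD, n = 3; limma adjusted p = 0.0305 and 0.0355). The Epha1 call was lost without CNV replicates 1 or 3, or untreated replicates 1 or 2 (adjusted p of 0.0629 to 0.0941). The Ephb6 call was lost without CNV replicates 1, 2 or 3, or untreated replicates 2 or 3 (adjusted p of 0.059 to 0.124). Both were also lost with no filter and with FPKM divided by each library's sum, and Epha1 with quantile normalization. The gene span of Epha1 shares 1727 bases with that of Zyx on the opposite strand, which had a mean of 14.2 FPKM. No strand setting of the counting is stated, and the part of Zyx reads in the Epha1 level was not tested.

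Ephrins are the ligands of Eph receptors, and 28.6% of 7 tested ones were called in BetP-Gel@Ran and 14.3% in CNV against untreated libraries, beside 34.2% and 44.6% of all tested genes. Efna1, Efna3 and Efna4 lie next to each other on the minus strand of chromosome 3 with no other coding gene between. Efna3 (89313899 to 89322965) had 4.81, 3.78 and 4.31 FPKM in BetP-Gel@Ran, 2.22, 1.80 and 3.02 in CNV and 4.74, 4.40 and 3.11 in untreated libraries. The CNV libraries were the lowest, and BetP-Gel@Ran and untreated libraries overlapped. It fell by 0.60 ± 0.16 on the log2 scale in CNV against untreated libraries (limma adjusted p = 0.0133), a call lost without untreated replicate 1 (adjusted p = 0.0522). It was higher by 0.67 ± 0.16 in BetP-Gel@Ran than in CNV libraries (limma adjusted p = 0.0276), a call lost without BetP-Gel@Ran replicates 1, 2 or 3, or CNV replicates 1 or 2 (adjusted p of 0.0617 to 0.1) and with no filter.

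Efna1 (89271733 to 89281142), a ligand of EphA2, had 14.0, 13.3 and 13.1 FPKM in BetP-Gel@Ran, 16.4, 18.4 and 15.7 in CNV and 17.8, 15.8 and 15.1 in untreated libraries. The BetP-Gel@Ran libraries were below all others, 1.25-fold against CNV and 1.21-fold against untreated libraries (limma adjusted p = 0.0441 and 0.0452). The call against CNV was lost without BetP-Gel@Ran replicates 1, 2 or 3, CNV replicates 1 or 2, or untreated replicate 2 (adjusted p of 0.0629 to 0.151). The call against untreated was lost without BetP-Gel@Ran replicates 1, 2 or 3, CNV replicate 1, or untreated replicates 1 or 2 (adjusted p of 0.0592 to 0.15) and with limma voom or quantile normalization. Both were lost with no filter, with FPKM divided by each library's sum and with no trend or robust option, and the call against CNV with 2 groups only. Efna4 (89333390 to 89338028) was not called, at 4.45 ± 0.545, 3.63 ± 0.848 and 3.81 ± 0.321 FPKM in BetP-Gel@Ran, CNV and untreated libraries (SD, n = 3 each). Efnb2, the ephrin-B known from arteries, had 9.22, 7.67 and 8.85 FPKM in BetP-Gel@Ran, 7.76, 7.25 and 8.50 in CNV and 7.24, 6.32 and 5.86 in untreated libraries. It rose 1.33-fold in BetP-Gel@Ran against untreated libraries (limma adjusted p = 0.0194), a call lost without BetP-Gel@Ran replicates 1 or 3, or untreated replicates 2 or 3 (adjusted p of 0.0582 to 0.0676). Efna2, Efna5 and Efnb1 were not called.

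**Figure D4:**
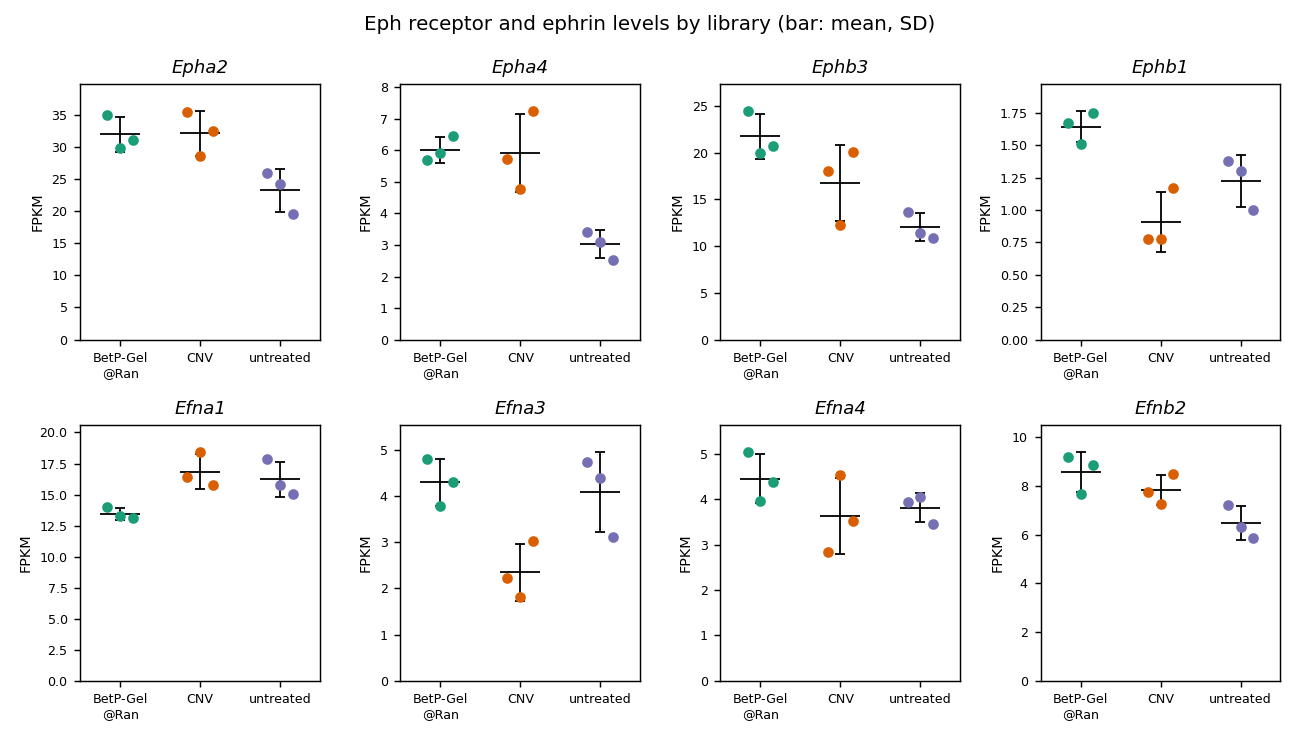
FPKM (y axis, from 0) of 4 Eph receptor and 4 ephrin genes in each library of the 3 groups (x axis). Points are libraries and bars are the mean and SD. Epha2 and Epha4 are higher in BetP-Gel@Ran and CNV than in untreated libraries, while Efna3 is lowest in CNV and Efna1 lowest in BetP-Gel@Ran libraries.

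Among netrin receptors, Unc5a fell in CNV against untreated libraries (ENSMUSG00000025876, chromosome 13, 54949411 to 55006018, plus strand). It had 14.9, 9.38 and 12.7 FPKM in BetP-Gel@Ran, 7.43, 6.51 and 8.65 in CNV and 16.3, 14.3 and 11.7 in untreated libraries. CNV libraries lay below all others, whereas BetP-Gel@Ran and untreated libraries overlapped. The fall was 0.82 ± 0.17 on the log2 scale (limma adjusted p = 0.00402, called in all 9 left-out fits). The level was 1.64-fold higher in BetP-Gel@Ran than in CNV libraries (limma adjusted p = 0.0405), a call lost without BetP-Gel@Ran replicates 1 or 3, CNV replicates 1 or 2, or untreated replicate 2 (adjusted p of 0.0585 to 0.141), with no filter and with 2 groups only. Of 13 ganglion cell markers, 12 were also lower in CNV than in untreated libraries. They summed to 182 to 190.3 FPKM in BetP-Gel@Ran, 85.6 to 111 in CNV and 275 to 457 in untreated libraries, with none at 0. In BetP-Gel@Ran against untreated libraries 11 of them were lower, while Unc5a was not called (limma adjusted p = 0.422). In CNV against untreated libraries, 6 of 14 tested lens markers were lower and 0 higher. Of 10 corneal and surface epithelium markers, 6 were lower and 1 higher there. The part of these tissues in the level of Unc5a was not tested.

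Unc5b, a netrin receptor also known from vessels, had 4.80, 3.73 and 3.85 FPKM in BetP-Gel@Ran, 3.42, 2.82 and 3.45 in CNV and 2.77, 2.65 and 2.18 in untreated libraries, with no overlap between any groups. It rose 1.63-fold in BetP-Gel@Ran against untreated libraries (limma adjusted p = 0.00575, called in all 9 fits) and was not called in CNV (limma adjusted p = 0.0788). Ntn1, the founding netrin that guides axons at the optic disc, had 5.01, 5.32 and 5.62 FPKM in BetP-Gel@Ran, 4.64, 2.81 and 4.48 in CNV and 3.71, 3.28 and 3.38 in untreated libraries. It rose 1.54-fold against untreated libraries (limma adjusted p = 0.0206), a call lost without BetP-Gel@Ran replicates 2 or 3, or untreated replicates 2 or 3 (adjusted p of 0.0533 to 0.0697). Ntn4, a netrin of basement membranes, was the most abundant netrin, at 18.9 ± 1.34, 16.5 ± 1.62 and 15.9 ± 0.550 FPKM in BetP-Gel@Ran, CNV and untreated libraries (SD, n = 3 each), and was not called (limma adjusted p of at least 0.0592 in each comparison). Its BetP-Gel@Ran libraries lay above all untreated ones, and 6 of 18 other fits called that rise (lowest limma adjusted p of 0.0209).

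Of the Slits and Robos, only Slit3, a secreted Robo ligand, passed the filter. It had 2.45, 2.98 and 3.47 FPKM in BetP-Gel@Ran, 2.87, 1.63 and 2.80 in CNV and 1.66, 1.36 and 1.75 in untreated libraries. It rose 1.86-fold in BetP-Gel@Ran against untreated libraries without overlap (limma adjusted p = 0.0164), a call lost without BetP-Gel@Ran replicate 3, or untreated replicate 2 (adjusted p of 0.0577 to 0.0647). Robo1, the most abundant Robo, averaged 0.590, 0.636 and 0.655 FPKM in BetP-Gel@Ran, CNV and untreated libraries. The vessel receptor gene Robo4 reached at most 0.301 FPKM in any library.

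In BetP-Gel@Ran against CNV libraries fewer members were called than in the other comparisons. Ephb1, Unc5a, Efna3 and Sema4a were higher, and Plxnd1, Sema3b and Efna1 lower. The same CNV libraries serve as the other side of the comparison with untreated libraries, where Unc5a, Efna3 and Sema4a fell and Plxnd1 rose. None of the 7 calls held in all 9 fits that left out a library. The number of called members ranged from 0 to 9, and was 0 without CNV replicate 1, CNV replicate 2, BetP-Gel@Ran replicate 1 or BetP-Gel@Ran replicate 3, while 12, 9, 11 and 10 members had an unadjusted p under 0.05 in these fits. The number of all called genes ranged from 253 to 3089 in the same fits. Both highest counts, 9 members and 3089 genes, came without CNV replicate 3. limma voom on recovered reads called 9 members. With all genes tested and no filter, 0 members were called and 20 had an unadjusted p under 0.05.

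Of 47 other guidance genes, which cover co-receptors and signal carriers inside the cell, 35 were tested. In CNV against untreated libraries 12 were higher and 6 lower, in BetP-Gel@Ran against CNV libraries 4 and 3, and in BetP-Gel@Ran against untreated libraries 13 and 4. These are 51.4%, 20.0% and 48.6% of those tested, beside 44.6%, 14.1% and 34.2% of all tested genes. Their median log2 fold changes were 0.12, 0.13 and 0.20. The largest falls were in Crmp1 and Dpysl4, neuronal carriers of the semaphorin signal of the collapsin response mediator family, both under 1 FPKM in all CNV libraries. Crmp1 had 1.16, 1.28 and 1.01 FPKM in BetP-Gel@Ran, 0.509, 0.501 and 0.822 in CNV and 4.14, 4.71 and 2.05 in untreated libraries (log2 -1.06 and -1.48 against untreated, limma adjusted p = 0.00497 and 5.12e-04). Dpysl4 was lower by the same pattern, at 1.35 ± 0.184, 0.835 ± 0.0254 and 3.01 ± 0.764 FPKM in BetP-Gel@Ran, CNV and untreated libraries (SD, n = 3 each; limma adjusted p = 0.00298 and 2.14e-04 against untreated). Both fell alongside the ganglion cell markers, whose part was not tested.

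Ngef, which encodes ephexin, an exchange factor downstream of EphA4, had 7.57, 6.89 and 6.47 FPKM in BetP-Gel@Ran, 3.08, 2.87 and 5.0 in CNV and 7.65, 7.01 and 6.39 in untreated libraries. It fell in CNV against untreated libraries and was higher in BetP-Gel@Ran than in CNV libraries (limma adjusted p = 0.00247 and 0.0144), the second call being lost without BetP-Gel@Ran replicate 2, or CNV replicates 1 or 2 (adjusted p of 0.0517 to 0.0646). Fes, a kinase linked to semaphorin 3A signalling that is also abundant in myeloid cells, ran the opposite way, with 2.04, 1.80 and 1.78 FPKM in BetP-Gel@Ran, 4.30, 4.68 and 3.01 in CNV and 1.03, 1.50 and 1.43 in untreated libraries. It rose 3.03-fold in CNV against untreated libraries and was 2.14-fold lower in BetP-Gel@Ran than in CNV libraries (limma adjusted p = 2.60e-04 and 0.0110, the second lost without CNV replicate 1 at 0.0552). Flrt2, a membrane ligand of Unc5 receptors, had 2.40, 2.37 and 2.64 FPKM in BetP-Gel@Ran, 4.77, 4.63 and 3.06 in CNV and 1.61, 1.38 and 1.62 in untreated libraries. It rose 2.70-fold in CNV against untreated libraries (limma adjusted p = 3.12e-04). It was also called lower in BetP-Gel@Ran than in CNV and higher in BetP-Gel@Ran than in untreated libraries (limma adjusted p = 0.0265 and 0.0244). Those calls were lost without BetP-Gel@Ran replicates 1, 2 or 3, or CNV replicates 1 or 2 (adjusted p of 0.0634 to 0.103) and without BetP-Gel@Ran replicates 1, 2 or 3, or untreated replicates 1 or 2 (adjusted p of 0.0517 to 0.0796).

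Vav2, an exchange factor recruited by Eph receptors, had 5.03 ± 0.217 FPKM in BetP-Gel@Ran, 5.22 ± 0.389 in CNV and 2.85 ± 0.411 in untreated libraries (SD, n = 3 each). Like Met, a receptor tyrosine kinase that associates with plexin-B receptors, it rose in both groups against untreated libraries (limma adjusted p = 9.96e-04 and 3.30e-04 for Vav2, 0.00158 and 4.42e-04 for Met). Arhgef12, an exchange factor that binds plexin-B receptors, had 14.0, 13.9 and 15.3 FPKM in BetP-Gel@Ran, 10.9, 10.7 and 12.9 in CNV and 8.95, 8.83 and 8.13 in untreated libraries, with no overlap between groups. It was called in all 3 comparisons (limma adjusted p = 0.00573 in CNV against untreated, 0.0437 in BetP-Gel@Ran against CNV and 5.53e-04 in BetP-Gel@Ran against untreated libraries), of which the second was lost without BetP-Gel@Ran replicates 1, 2 or 3, CNV replicates 1 or 2, or untreated replicates 1 or 2 (adjusted p of 0.06 to 0.15).

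Of the other listed genes, Cd72, Farp1, Mical3, Nck2 and Rasa1 rose and Dpysl2, Fyn and Pak1 fell in CNV against untreated libraries, by -0.51 to 0.81 on the log2 scale. Cd72 and Mical3 stayed under 1 FPKM in all untreated libraries and passed the filter through the other groups, so their values are a description. Of these calls, that of Mical3 was lost without CNV replicates 1 or 2, or untreated replicates 1, 2 or 3 (adjusted p of 0.0552 to 0.0786), that of Nck2 without CNV replicates 1 or 3, or untreated replicate 3 (adjusted p of 0.0554 to 0.088), that of Dpysl2 without CNV replicates 1 or 3, or untreated replicate 2 (adjusted p of 0.0509 to 0.0596) and that of Fyn without CNV replicate 2, or untreated replicates 1 or 2 (adjusted p of 0.0673 to 0.101). In BetP-Gel@Ran against untreated libraries Cd72, Mical3, Nck1, Nck2, Rgmb, Srgap2 and Srgap3 rose and Dpysl3 and Pak1 fell. There the call of Cd72 was lost without BetP-Gel@Ran replicates 2 or 3, or untreated replicates 1, 2 or 3 (adjusted p of 0.0534 to 0.109), that of Mical3 without BetP-Gel@Ran replicates 1, 2 or 3, or untreated replicates 1, 2 or 3 (adjusted p of 0.0613 to 0.0801) and that of Rgmb without BetP-Gel@Ran replicate 2 (adjusted p = 0.0545). The call of Dpysl3 was lost without BetP-Gel@Ran replicates 1 or 3, or untreated replicates 1 or 2 (adjusted p of 0.0754 to 0.109) and that of Pak1 without BetP-Gel@Ran replicates 1, 2 or 3, CNV replicate 2, or untreated replicates 1 or 2 (adjusted p of 0.0559 to 0.154). Ablim1 and Srgap2 were higher and Farp1 was lower in BetP-Gel@Ran than in CNV libraries. The call of Ablim1 was lost without BetP-Gel@Ran replicates 1, 2 or 3, or CNV replicates 1 or 2 (adjusted p of 0.0578 to 0.0942), that of Srgap2 without BetP-Gel@Ran replicates 1, 2 or 3, CNV replicates 1 or 2, or untreated replicates 1 or 2 (adjusted p of 0.0578 to 0.15) and that of Farp1 without BetP-Gel@Ran replicates 1, 2 or 3, CNV replicates 1 or 2, or untreated replicates 1, 2 or 3 (adjusted p of 0.053 to 0.151).

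The 28 members that did not pass the filter reached at most 1.55 FPKM in any library, and the per-gene maximum went down to 0.0484 FPKM in Ntn5. They were Epha3, Epha5, Epha6, Epha7, Epha8, Epha10, Ephb2, Efnb3, Ntn5, Plxna3, Plxna4, Plxnb3, Robo1, Robo2, Robo3, Robo4, Sema3a, Sema3e, Sema3g, Sema4f, Sema4g, Sema5b, Sema6a, Sema6d, Slit1, Slit2, Unc5c and Unc5d. With no filter, 2 of them were higher and 3 lower in CNV than in untreated libraries, and that fit called 21.9% of all 29374 genes. In each comparison that involved BetP-Gel@Ran libraries 0 were called by limma, with 8 at an unadjusted p under 0.05 against CNV and 5 against untreated, where 2.9% and 13.8% of all genes were called.

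Sema3g, an endothelial class 3 semaphorin, had 0.289, 0.268 and 0.259 FPKM in BetP-Gel@Ran, 1.17, 1.34 and 0.390 in CNV and 0.130, 0.285 and 0.232 in untreated libraries (limma adjusted p = 0.0286 in CNV against untreated with no filter). CNV replicate 3 lay far nearer to the other groups than the other CNV libraries did. Efnb3, an ephrin-B of neurons, had 0.735, 0.922 and 0.888 FPKM in BetP-Gel@Ran, 0.396, 0.215 and 0.371 in CNV and 1.55, 1.29 and 0.603 in untreated libraries (limma adjusted p = 0.0188 in CNV against untreated with no filter). Ephb2 was higher and Robo2 and Sema4g were lower in CNV than in untreated libraries in the same fit (limma adjusted p = 0.0240, 0.0224 and 0.0369). Sema3e, the ligand of plexin-D1, had 0.356, 0.233 and 0.336 FPKM in BetP-Gel@Ran, 0.565, 0.528 and 0.456 in CNV and 0.184, 0.461 and 0.227 in untreated libraries and was not called in that fit.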

How the data were processed

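The authors deposited 1 table of FPKM for 54532 genes in 9 libraries. Per the labels' protocols, poly-T beads selected the mRNA and a NEBNext Ultra kit made each library. The submitters' processing notes name HTSeq 0.6.0 and the mm10 build, and no aligner is named there. FPKM times gene length gave whole reads for 100% of values (tolerance 0.05), from which depth was recovered, 16990118 to 18753737 reads per library. The library sizes that the FPKM imply ran from 16141701 to 19813498, so the deposited values carry a further scaling of each library. Coordinates of all 65 members were identical to GENCODE M21.

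The test took the 14086 genes that reached 1 FPKM in 3 or more libraries. limma 3.58.1 in R 4.3.3 modelled log2(FPKM + 1) (statmod 1.5.0), 1 mean per group, all 9 libraries, trend and robust options, two-sided p, Benjamini-Hochberg within each comparison, threshold 0.05. Members shown by library were the 10 largest called rises and falls per comparison and the most abundant of each family. Low members, neighbours and overlapping genes were added after their values were seen. Members and lists were chosen with earlier results of these data known.

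Alternatives changed the pseudocount to 0.1, dropped the filter or raised it to 5 FPKM, and used quantile normalization, division of FPKM by its sum, no trend or robust option, 2 groups only, the replicate number as a block, limma voom on recovered reads, and each library left out in turn. Within groups, log2 levels of libraries correlated with r of 0.981 to 0.990 across genes, which are not independent replicates.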

Additional observations from a re-analysis of the deposited data

How the results depend on the processing

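Called members kept their direction in every fit run, and the changes concerned how many were called. A filter of 5 FPKM left 17 members, of which 8, 4 and 9 were called in CNV against untreated, BetP-Gel@Ran against CNV and BetP-Gel@Ran against untreated libraries (15, 7 and 18 as reported). It called 9, 4 and 7 of the other guidance genes and 3846 of all genes in CNV against untreated libraries. In BetP-Gel@Ran against CNV libraries, 0 members were called without a filter (20 at an unadjusted p under 0.05, limma), 3 with FPKM divided by its sum, 3 with 2 groups only and 2 with the replicate block. The other guidance genes gave 2, 4, 3 and 4 calls there, and all genes 853 without a filter and 1189 with 2 groups only.

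With 1 library left out, called members ranged from 11 to 16, 0 to 9 and 9 to 19 in the 3 comparisons, other guidance genes from 15 to 19, 0 to 9 and 11 to 18, and all genes from 5058 to 6181, 253 to 3089 and 3201 to 5126. The replicate numbers did not pair the libraries: deviations of same-numbered libraries correlated with r of -0.148 to 0.0841. The replicate block gave 15, 2 and 17 called members. The replicate block ended the calls of Ephb6 in CNV against untreated, of Efna1, Ephb1, Plxnd1, Sema3b and Sema4a in BetP-Gel@Ran against CNV, and of Efna1 and Sema6b in BetP-Gel@Ran against untreated libraries.

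Only members that were not called in a comparison changed sign there. The values given cover the members with the largest called changes and the most abundant member of each family. Further members changed sign and are not listed. With quantile normalization and with FPKM divided by its sum, the log2 differences were 0.0186 and 0.0358 for Sema3b and 0.00363 and 0.00358 for Sema4d in CNV against untreated, 0.0157 and 0.0137 for Epha2 in BetP-Gel@Ran against CNV, and 0.0651 and 0.0708 for Sema4a in BetP-Gel@Ran against untreated libraries. With 1 library left out, CNV against untreated ran from -0.0104 to 0.118 for Efna1, -0.0284 to 0.102 for Ntn4, -0.106 to 0.0388 for Sema3b, -0.0790 to 0.123 for Sema3f and -0.168 to 0.0259 for Sema4d. BetP-Gel@Ran against CNV ran from -0.0859 to 0.0659 for Epha2, -0.0892 to 0.168 for Epha4, -0.132 to 0.0404 for Plxnc1 and -0.112 to 0.170 for Sema7a. BetP-Gel@Ran against untreated ran from -0.0764 to 0.166 for Efna3 and -0.0537 to 0.0621 for Sema4a. The cause was not tested. Reads limit low members: tested members had 22 to 7326 reads per library.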
